A study of Mus musculus with 12 samples.

Results

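The sirtuin and NAD metabolism genes were examined in cerebellar RNA of mice of the fxSCA7 92Q line and of their wild-type littermates. The members were a named set of 10 genes: the sirtuins Sirt1, Sirt2, Sirt3, Sirt5 and Sirt7, the NAD synthesis enzymes Nampt, Nmnat2 and Nmnat3, the NAD consumer Parp1 and the NAD kinase Nadk. Of these, 9 were matched to a row of the deposited table of 7667 genes. Nmnat3, a mitochondrial enzyme of NAD synthesis, was found there under neither its symbol nor a synonym and was not analysed here.

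The study sequenced total cerebellar RNA from 4 groups: 92Q at 29 weeks, wild type at 29 weeks, 92Q at 12 weeks and wild type at 12 weeks. The 92Q animals carry an allele with 92 CAG repeats. The line is named for spinocerebellar ataxia type 7, a polyglutamine disease of the gene Atxn7 with loss of cerebellar Purkinje neurons. The wild-type animals were littermates with a repeat of normal length. Each group had 3 libraries made from pools of 3 mice, 12 libraries in all. The sources used here do not give the promoter that drives the allele or the sex of the animals.

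The table holds 1 value per gene and group, a whole-number normalized score of no stated unit, made by the authors from the 3 libraries. There is therefore no replicate error and no test for any comparison below, and the words higher and lower refer to the 4 printed scores of a gene. The read depth behind a score is unknown. Ratios are log2 ratios of the score plus 1, and the range in brackets is what rounding alone allows, found by moving each score by 0.5. At a score of 10 rounding leaves a log2 ratio uncertain by 0.13, at 22 by 0.06 and at 100 by 0.01. A score is not known to be per length, so scores were compared between groups and never between genes.

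NAD carries electrons in glycolysis and respiration and is also consumed as a substrate. Sirtuins are deacylases that use up NAD to remove acyl groups from proteins, poly(ADP-ribose) polymerases such as Parp1 use it to mark DNA breaks, and both release nicotinamide. Nampt, the rate-limiting salvage enzyme, turns nicotinamide into nicotinamide mononucleotide, which the Nmnat enzymes convert back to NAD. The pathway is of interest in this ataxia because Sirt1 activity and NAD supply have been tied to the calcium handling of Purkinje neurons.

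Levels of these transcripts were close in all 4 groups. Of the 9 members, 4 spanned a single score unit over the 4 groups (Sirt3, Sirt7, Nampt and Nadk), 5 spanned at most 2 and 7 at most 3, and among all 7667 genes the corresponding numbers were 2193, 4000 and 5038. Such counts among 9 genes do not set the members apart from other genes. None of the 9 differed by 1.5-fold in any of the 4 comparisons. Genes past 1.5-fold in either direction made up 1.27% of those compared for genotype at 29 weeks, 0.248% for genotype at 12 weeks, 1.46% for age in 92Q and 0.365% for age in wild type. None of the 9 stood among the 99 genes of the authors' deposited table of selected genes. The threshold planned for the main counts was 1.1-fold. Over the 4 comparisons together, which share groups, 4 members passed it at least once: Sirt1, Sirt2, Sirt5 and Parp1. The counts per comparison are given below beside the shares of all genes.

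**Figure D1:**
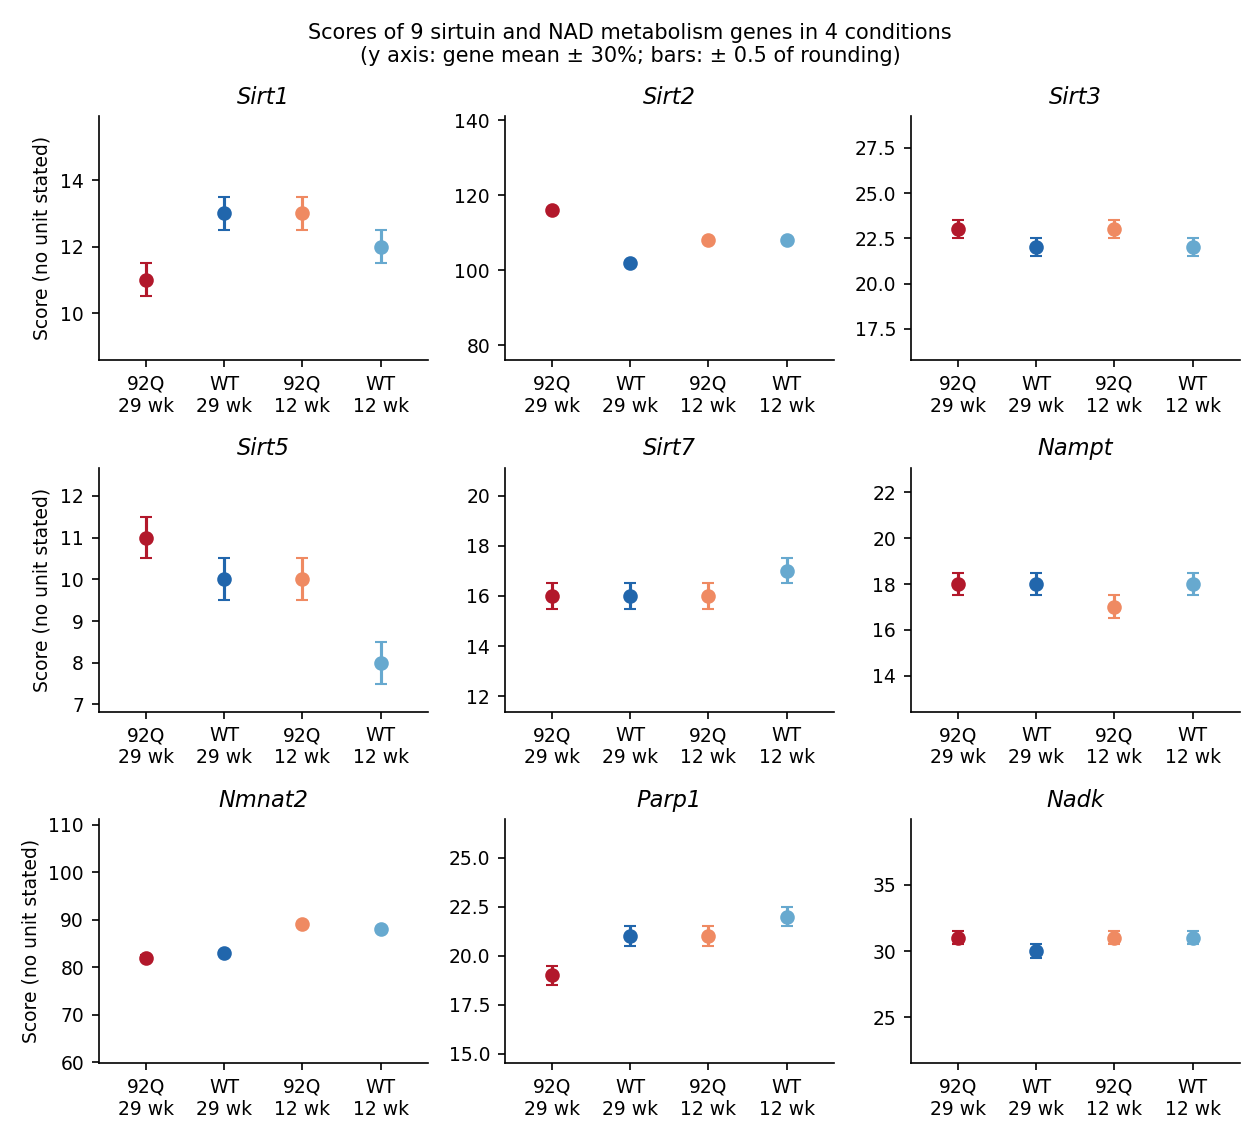
Normalized score (y axis, no unit stated) of each of the 9 genes in 92Q and wild type at 29 weeks and in 92Q and wild type at 12 weeks; each panel spans 30% either side of the gene's mean, so panels start above 0, and bars are the 0.5 of rounding. Sirt2 was highest in 92Q at 29 weeks (116), Sirt1 and Parp1 lowest there (11 and 19), and Sirt5 lowest in wild type at 12 weeks (8).

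Sequence upstream of the start is shown for the members past 1.1-fold for genotype at 29 weeks, the pair that was lower in 92Q (Sirt1 and Parp1) and the member that was higher (Sirt2), so that the start regions can be set side by side. Each run is the 250 bases before the RefSeq start on GRCm38.p6, the assembly also called mm10, read 5′ to 3′ on the gene's strand. Capitals mark CACGTG, the palindromic E-box read by the clock factors Clock and Arntl and by Myc. Sirt1 (minus strand, chr10:63339036-63339285), Parp1 (plus strand, chr1:180568641-180568890) and Sirt2 (plus strand, chr7:28766502-28766751) read as follows.
Sirt1: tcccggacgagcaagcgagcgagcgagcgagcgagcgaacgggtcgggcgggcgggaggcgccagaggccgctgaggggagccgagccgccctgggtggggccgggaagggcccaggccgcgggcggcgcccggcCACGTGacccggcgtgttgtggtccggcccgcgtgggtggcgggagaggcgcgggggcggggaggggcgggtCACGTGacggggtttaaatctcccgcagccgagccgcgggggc
Parp1: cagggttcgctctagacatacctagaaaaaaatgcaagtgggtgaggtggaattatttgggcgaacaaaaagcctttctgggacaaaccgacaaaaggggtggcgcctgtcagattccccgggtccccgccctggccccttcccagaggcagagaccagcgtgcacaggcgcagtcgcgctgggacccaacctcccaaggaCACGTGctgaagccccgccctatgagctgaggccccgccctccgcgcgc
Sirt2: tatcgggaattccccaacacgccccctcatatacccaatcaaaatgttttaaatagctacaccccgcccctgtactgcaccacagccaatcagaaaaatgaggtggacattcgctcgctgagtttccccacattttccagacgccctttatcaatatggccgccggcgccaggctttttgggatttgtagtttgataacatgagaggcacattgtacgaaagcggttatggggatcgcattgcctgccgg

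The 9 members matched 11 such windows, since Sirt3 and Nadk have 2 starts each. CACGTG stood in 3 of the 11, those of Sirt1, Parp1 and the downstream start of Nadk, against 6.02% of 32851 windows of all genes. In Sirt1 it began 115 and 43 bases before the start, in Parp1 49 bases before it and in that Nadk window 40 bases before it. GGGCGG, the GC box read by Sp1, on either strand occurred in 8 of the 11 windows against 32.7% of all windows, and overlapped no E-box. The TATA box TATAAA, on either strand, was in 0 of the 11 against 12.4%. CpG pairs numbered 4 to 39 per window, above the median of 6 for all windows in 10 of the 11, with Sirt1 the highest. The windows of all genes were neither limited to measured genes nor matched for CpG, so these shares set unlike groups side by side. A match describes these letters and not a bound site, and no match says only that these letters are not in this window.

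Among the sirtuins, Sirt1 is the nuclear deacetylase that acts on histones and on transcription factors such as the Foxo proteins. Its gene lies on chromosome 10 at 63319005 to 63381704 (mm10, GENCODE M21, minus strand), a span that also takes in the sequence printed above. Sirt1 scored 11 in 92Q and 13 in wild type at 29 weeks, and 13 in 92Q and 12 in wild type at 12 weeks. The lowest of the 4 values was thus that of 29-week 92Q. The 29-week log2 ratio of 92Q to wild type was -0.22 (rounding range -0.33 to -0.11), at percentile 3.07 of the 4222 genes whose mean score lay within 0.5 to 2 times its own. At 12 weeks the ratio was 0.11, with a rounding range that reached 0. An antisense gene, Gm16145, shares exon sequence with Sirt1, and the counting is not stated to use strand.

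Sirt2 is a mainly cytoplasmic deacetylase of alpha-tubulin and other proteins, abundant in oligodendrocytes and myelin. Sirt2 lies on chromosome 7 at 28766735 to 28788661 (plus strand). Sirt2 scored 116 in 92Q and 102 in wild type at 29 weeks, and 108 in both genotypes at 12 weeks. At 29 weeks the groups lay 14 units apart, with 92Q above and wild type below the shared 12-week value. The log2 ratio of Sirt2 was 0.18 at 29 weeks (rounding range 0.17 to 0.20), at percentile 94.7 of 1198 genes of like level. At 12 weeks it was 0.00 (-0.01 to 0.01). Nfkbib, which shares exon sequence on the opposite strand, scored 16 in all 4 groups.

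Sirt2 and most of the listed myelin and oligodendrocyte genes were higher in 92Q at 29 weeks, but not at 12 weeks. Of 20 measured markers of that list, 16 were higher in 92Q at 29 weeks, 12 of them past 1.1-fold, and 3 were lower, 0 of them past 1.1-fold. Among all genes 15.0% were past 1.1-fold higher and 8.47% past 1.1-fold lower. Their median log2 ratio was 0.16 and their range -0.12 to 0.51. The value of Sirt2 lay within that range, but so did those of Nampt (0.00), Nmnat2 (-0.02) and Nadk (0.05). Sirt1 and Parp1 lay below it. The range therefore does not tell Sirt2 from most other members. Mog, a myelin surface glycoprotein, scored 60 in 92Q and 46 in wild type, Opalin, an oligodendrocyte membrane protein, 26 in 92Q and 18 in wild type, and the lineage factor Olig2 16 in 92Q and 12 in wild type. At 12 weeks Sirt2 had equal scores in both genotypes, while the list had a median of -0.07, with 3 of 20 higher and 13 lower. The summed score of the list was 4879 in 92Q and 4543 in wild type at 29 weeks, and 4275 in 92Q and 4539 in wild type at 12 weeks. The part of these cells in the Sirt2 value was not tested. In bulk tissue a change in the number of cells of a type and a change in RNA per cell cannot be told apart.

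The mitochondrial sirtuins were the deacetylase Sirt3 and the desuccinylase and demalonylase Sirt5. Sirt3 (chromosome 7, 140863666 to 140882309, minus strand) scored 23 in 92Q and 22 in wild type at 29 weeks, and likewise 23 in 92Q and 22 in wild type at 12 weeks. Both genotype ratios were 0.06, with rounding ranges that reached 0. Sirt3 shares exon sequence with Psmd13 and Ric8a on the opposite strand, and Psmd13 scored 19 in 92Q and 19 in wild type at 29 weeks.

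Sirt5 (chromosome 13, 43365496 to 43395203, plus strand) was the member with the widest relative spread over the 4 groups. Sirt5 scored 11 in 92Q and 10 in wild type at 29 weeks, and 10 in 92Q and 8 in wild type at 12 weeks. The 12-week wild-type value stood below the other three groups, which lay within 1 unit of each other. The genotype log2 ratio of Sirt5 was 0.29 at 12 weeks (rounding range 0.14 to 0.44), at percentile 99.5 of 3362 genes of like level, and 0.13 at 29 weeks (0.00 to 0.25). A row of the table reaches 10 in at least 1 group, and Sirt5 reached it in all but that of wild type at 12 weeks. In that group alone the Y-linked transcripts Eif2s3y and Ddx3y were listed at 0, and the part of sex in the Sirt5 values was not tested.

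The nucleolar deacetylase Sirt7 (chromosome 11, 120618372 to 120625240, minus strand) scored 16 in 92Q and 16 in wild type at 29 weeks, and 16 in 92Q and 17 in wild type at 12 weeks. The single unit between these values is within what rounding allows. Sirt7 shares exon sequence with Mafg on the same strand, which scored 22 in 92Q and 24 in wild type at 29 weeks, so reads in the shared stretch could be assigned to either gene. Of the sirtuins outside the set, Sirt4, of mitochondria, scored 15 in both genotypes at 29 weeks and 16 in 92Q and 15 in wild type at 12 weeks. Sirt6, a chromatin deacylase, scored 17 in both genotypes at 29 weeks and 18 in 92Q and 17 in wild type at 12 weeks. All 7 mammalian sirtuins thus had a measured row.

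Nampt (chromosome 12, 32819545 to 32853349, plus strand) was the flattest of the synthesis enzymes. Nampt scored 18 in 92Q and 18 in wild type at 29 weeks, and 17 in 92Q and 18 in wild type at 12 weeks. The ratio was 0.00 at 29 weeks (rounding range -0.08 to 0.08) and -0.08 at 12 weeks, where the range reached 0. Nampt is a known output of the circadian clock, and Per2, a clock gene that represses Clock and Arntl, scored 16 in 92Q and 22 in wild type at 29 weeks and 10 in both genotypes at 12 weeks. Every difference of Nampt between groups was within rounding, so these values cannot show whether Nampt and Per2 move together.

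Nmnat2 (chromosome 1, 152954993 to 153119261, plus strand) makes NAD in axons, where its loss lets the NAD hydrolase Sarm1 drive axon degeneration. Nmnat2 scored 82 in 92Q and 83 in wild type at 29 weeks, and 89 in 92Q and 88 in wild type at 12 weeks. As deposited, the 29-week values were both below the 12-week values. The genotype log2 ratio was -0.02 at 29 weeks and 0.02 at 12 weeks, while the ratio of 29 to 12 weeks was -0.12 in 92Q (rounding range -0.13 to -0.10) and -0.08 in wild type (-0.10 to -0.07). These age ratios lay at percentiles 20.5 and 36.6 of 1604 genes of like level, inside the bulk of those genes. With upper quartile scaling the wild-type age ratio was -0.05 and the 12-week genotype ratio 0.05, so the sizes of these ratios depend on the scaling.

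Parp1 (chromosome 1, 180568924 to 180601254, plus strand), the main DNA-break polymerase, scored 19 in 92Q and 21 in wild type at 29 weeks, and 21 in 92Q and 22 in wild type at 12 weeks. As for Sirt1, 29-week 92Q held the lowest value. The 29-week log2 ratio of Parp1 was -0.14 (rounding range -0.21 to -0.07), at percentile 6.48 of 5101 genes of like level, and exactly 1.1-fold. At 12 weeks the ratio was -0.06 with a range that reached 0. Nadk (chromosome 4, 155562378 to 155591001, plus strand), which phosphorylates NAD to NADP, scored 31 in 92Q and 30 in wild type at 29 weeks, and 31 in both genotypes at 12 weeks.

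Counted at 1.1-fold, the genotype comparison at 29 weeks had 1 of 9 members higher in 92Q (Sirt2), where 15.0% of 7666 genes were, and 2 of 9 lower (Sirt1 and Parp1), where 8.47% were. At 12 weeks 1 of 9 was higher (Sirt5), where 4.50% of 7660 genes were, and 0 of 9 lower, where 8.02% were. Counts of 0 to 2 among 9 genes are no result about the set beside such shares. The median log2 ratio of the 9 was 0.00 at both ages, as was that of all genes. Among all genes past 1.1-fold, 63.9% were higher in 92Q at 29 weeks, or 46.4% after scaling by median ratios, and 36.0% were at 12 weeks, or 68.1% after upper quartile scaling. Sirt2 stayed higher in 92Q and Sirt1 and Parp1 lower at 29 weeks under every scaling tried, which is a weak check. Upper quartile scaling gave both 29-week groups the same factor. Median ratio scaling moved the median log2 ratio of all genes at 29 weeks only to -0.03, too little to reverse these ratios.

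**Figure D2:**
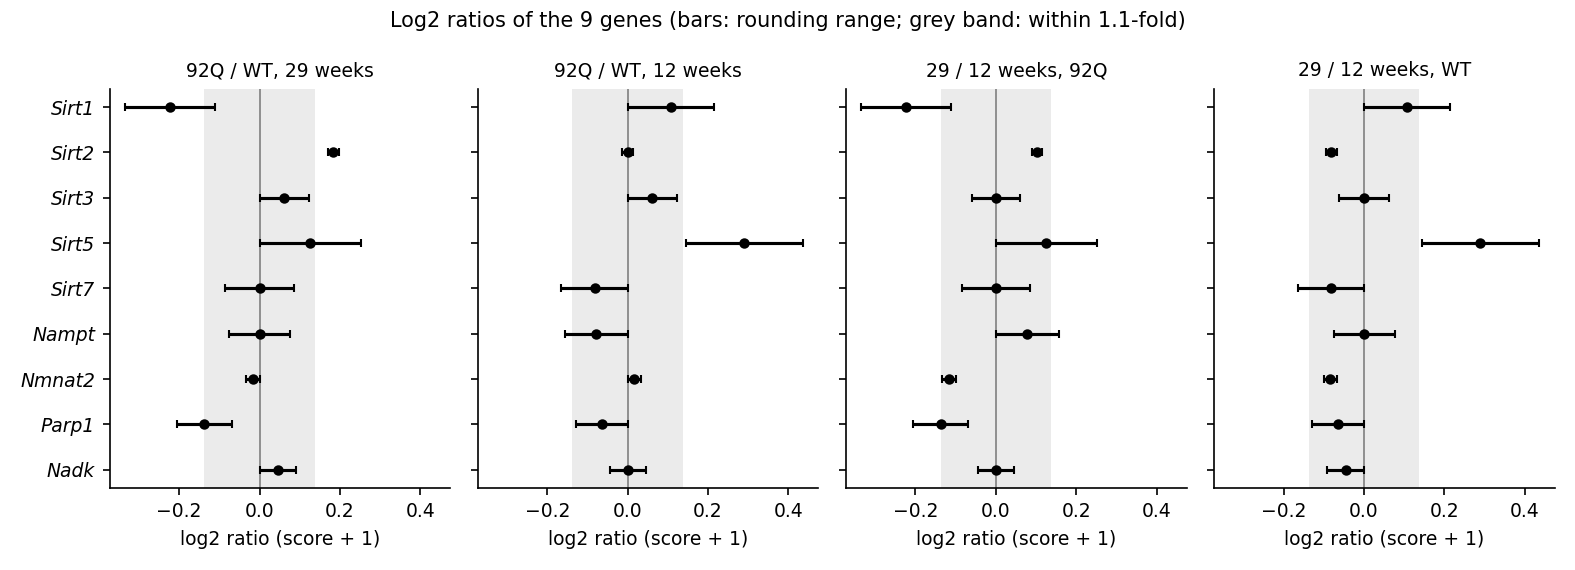
Log2 ratio (x axis, score plus 1) of each of the 9 genes in the 4 comparisons, with bars for the rounding range and a grey band for less than 1.1-fold. Outside the band lie Sirt1 (-0.22) and Sirt2 (0.18) for genotype at 29 weeks, Sirt5 (0.29) for genotype at 12 weeks, Sirt1 for age in 92Q and Sirt5 for age in wild type, and Parp1 (-0.14) lies on its edge for genotype at 29 weeks and for age in 92Q.

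The next question was how the genes differed with age. In 92Q animals 0 of 9 members were at least 1.1-fold higher at 29 than at 12 weeks, where 15.2% of 7667 genes were, and 2 of 9 were lower, Sirt1 and Parp1, where 11.9% were. Both had the same pair of scores as in the 29-week genotype comparison, 11 at 29 weeks against 13 at 12 weeks for Sirt1 and 19 against 21 for Parp1, and both comparisons share the 29-week 92Q value. In wild-type animals 1 of 9 was higher at 29 weeks, Sirt5 at 10 against 8, where 10.6% of 7663 genes were, and 0 of 9 were lower, where 17.1% were. Over all genes past 1.1-fold in wild type, 38.3% were higher at 29 weeks, or 59.9% after upper quartile scaling and 49.8% after median ratio scaling.

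The genotype ratio differed between ages for Sirt1 and Sirt2 by more than rounding allows. Taken as the 29-week minus the 12-week log2 ratio, the difference was -0.33 for Sirt1 (rounding range -0.55 to -0.11), at percentile 1.14 of 4218 genes of like level. For Sirt2 it was 0.18 (0.16 to 0.21), at percentile 87.8 of 1198. For the other 7 members the rounding range of this difference held or reached 0, with values from -0.16 for Sirt5 to 0.08 for Sirt7. These differences carry no replicate check.

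**Figure D3:**
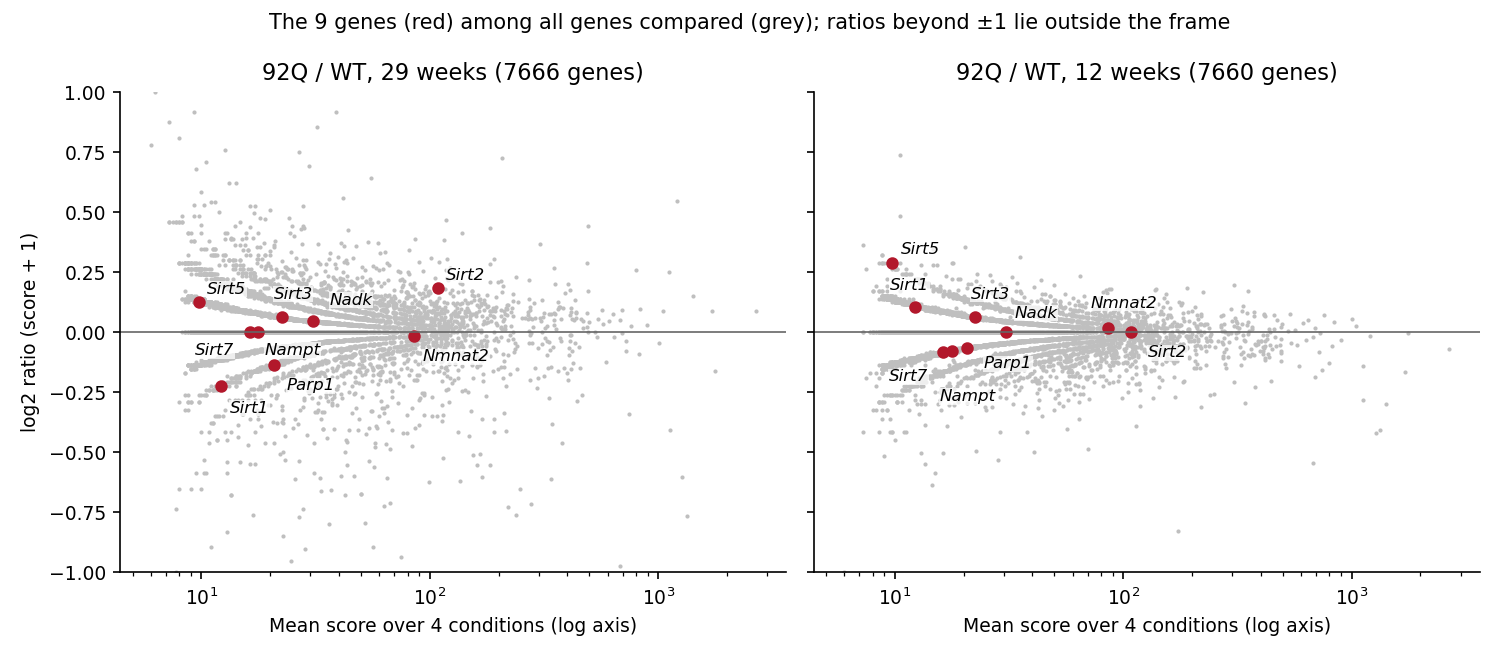
Genotype log2 ratio (y axis, score plus 1) against the mean score over the 4 groups (x axis, log scale) for the genes compared at 29 weeks (left, 7666) and at 12 weeks (right, 7660), with the 9 members in red and genes beyond 1 in either direction outside the frame. The bands at low scores are steps of whole numbers; Sirt2 lies toward the upper edge of its neighbours at 29 weeks and Sirt5 at 12 weeks, while Nampt, Sirt7, Nmnat2 and Nadk lie near 0 in both panels.

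By the rule for likeness of pattern, genes with a mean score of at least 20 were ranked by the Euclidean distance of their centred log2 scores over the 4 groups from any member that spanned at least 0.3 on that scale, which was Sirt5. The nearest of 4260 genes were Fam214a and Usp54, each at a distance of 0.08 and each scoring 27 in 92Q and 25 in wild type at 29 weeks and 24 in 92Q and 21 in wild type at 12 weeks. Scarb2, a lysosomal membrane receptor, followed at 0.09. With 4 points per gene and Sirt5 at scores of 8 to 11, such likeness is a description only.

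Besides the members, a list of 50 genes of NAD synthesis, consumption and handling and of the remaining sirtuins had 14 measured rows. At 29 weeks 3 of the 14 stood 1.1-fold or more above wild type in 92Q and 0 below, beside 15.0% and 8.47% of all genes, with a median log2 ratio of 0.03. At 12 weeks 1 was higher and 0 lower, beside 4.50% and 8.02% of all genes, with a median of 0.00. The other 14 listed enzymes of NAD synthesis, among them Nmnat1 and Naprt, were not analysed here. Of the consumers, Parp6, a mono(ADP-ribose) transferase, scored 42 in 92Q and 43 in wild type at 29 weeks and 49 in 92Q and 48 in wild type at 12 weeks, also lower at 29 weeks in both genotypes. Sarm1 scored 13 in both genotypes at 29 weeks and 13 in 92Q and 12 in wild type at 12 weeks.

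Parp2, another DNA-break polymerase, scored 12 in 92Q and 11 in wild type at 29 weeks and 12 in both at 12 weeks. The tankyrases, poly(ADP-ribose) polymerases of telomeres and Wnt signalling, differed little by genotype at 29 weeks: Tnks scored 20 in both genotypes, and Tnks2 scored 26 in 92Q and 25 in wild type. At 12 weeks Tnks scored 18 in 92Q and 16 in wild type, the 1 gene past 1.1-fold at that age, and Tnks2 26 in both.

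The 3 genes past 1.1-fold at 29 weeks were among 7 measured genes of NAD and nicotinamide handling. Of all genes 15.0% were past 1.1-fold higher and 8.47% past 1.1-fold lower. By any amount, 5 of the 7 were higher in 92Q and 0 lower, with a median log2 ratio of 0.09. Since these 7 are the part that holds the 3, their counts are no result about the part. Macrod1, a hydrolase that removes ADP-ribose from proteins, scored 12 in 92Q and 10 in wild type, a log2 ratio of 0.24. Carkd (now Naxd), which repairs damaged NAD(P)H, scored 26 in 92Q and 23 in wild type, and Slc25a51, the mitochondrial NAD carrier, scored 20 in 92Q and 18 in wild type. At 12 weeks each of the 3 had equal scores in the 2 genotypes. Apoa1bp (now Naxe), the partner of Carkd in that repair, scored 67 in 92Q and 63 in wild type at 29 weeks. Nadk2, the mitochondrial NAD kinase, scored 16 in both genotypes at 29 weeks, the ADP-ribose hydrolase Adprhl2 scored 12 in all 4 groups, and the peroxisomal carrier Slc25a17 scored 27 in 92Q and 26 in wild type.

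Enzymes that use NAD or NADP as cofactors showed small differences. Of 8 measured producers of NADPH 4 exceeded wild type by at least 1.1-fold in 92Q at 29 weeks and 0 were lower, with a median log2 ratio of 0.09, where 15.0% and 8.47% of all genes were. At 12 weeks 0 were higher and 1 lower, beside 4.50% and 8.02% of all genes, with a median of -0.08. The cytosolic and mitochondrial isocitrate dehydrogenases Idh1 and Idh2 scored 16 and 17 in 92Q at 29 weeks, against 14 and 15 in wild type. Pgd, of the pentose phosphate pathway, scored 17 in 92Q and 15 in wild type at that age, and the malic enzyme Me2 10 in 92Q and 9 in wild type, a difference within rounding. Of 13 genes of the NADH shuttles 1 was at least 1.1-fold higher at 29 weeks, the oxoglutarate carrier Slc25a11 at 59 in 92Q and 53 in wild type, and 0 were lower. The glutamate carrier Slc25a22 scored 92 in 92Q and 101 in wild type, Gpd1, of the glycerol phosphate shuttle, 103 in 92Q and 111 in wild type, and the malate dehydrogenase Mdh1 275 in 92Q and 256 in wild type.

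Proteins on which sirtuins act, or with which they bind, had a median log2 ratio of 0.05 over 23 measured genes at 29 weeks. Of these 23, 4 lay above wild type by 1.1-fold or more in 92Q and 3 lay below, beside 15.0% and 8.47% of all genes. The 12-week numbers were 1 above and 2 below, beside 4.50% and 8.02% of all genes, with a median of 0.00. Such counts do not set the list apart from other genes. The 4 genes named next were chosen by the size of their 29-week ratio. Tuba1a, an alpha-tubulin, scored 30 in 92Q and 23 in wild type at 29 weeks, and Acadl, an acyl-CoA dehydrogenase deacetylated by Sirt3, 26 in 92Q and 21 in wild type. The clock genes Per2 (16 in 92Q and 22 in wild type) and Arntl (11 in 92Q and 13 in wild type) were lower. In the axonal pathway around Nmnat2 and Sarm1, 14 of 14 listed genes were measured. At 29 weeks 0 were at least 1.1-fold higher and 2 were lower, beside the same 15.0% and 8.47% of all genes. Those were the kinase Map3k13 at 11 in 92Q and 13 in wild type and Stmn2, a microtubule regulator of axons, at 340 in 92Q and 377 in wild type. Fbxo45, part of the ligase that degrades Nmnat2, scored 13 in 92Q and 14 in wild type, and the scaffold Mapk8ip1 185 in 92Q and 176 in wild type.

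The calcium genes of Purkinje neurons differed by larger ratios than the sirtuin and NAD genes. Of 27 measured calcium and mGluR1 signalling genes 21 were at least 1.1-fold lower in 92Q at 29 weeks and 0 higher, beside 8.47% and 15.0% of all genes. Of the 21, 9 were lower by 1.5-fold, and 1.27% of all genes were past 1.5-fold in either direction. The median log2 ratio was -0.41 beside 0.00 for the 9 members. At 12 weeks the medians were -0.12 for the calcium genes and 0.00 for the members. Itpr1, the IP3 receptor, scored 190 in 92Q and 313 in wild type at 29 weeks, while Sirt1 scored 11 in 92Q and 13 in wild type. The largest member difference at 29 weeks, that of Sirt1, was -0.22, and 18 of the 27 calcium genes were lower by more than that. Markers of Purkinje cells, which share genes with the calcium list, had a summed score of 3396 in 92Q and 5461 in wild type at 29 weeks and 5074 in 92Q and 6536 in wild type at 12 weeks. Markers of granule neurons summed to 2852 in 92Q and 3077 in wild type at 29 weeks, with 3 of 15 higher and 10 lower. At 12 weeks the granule markers summed to 3514 in 92Q and 3405 in wild type, with 12 higher and 2 lower. The part of Purkinje cells or granule neurons in the values of Sirt1 and Parp1 was not tested. Levels of the members within Purkinje cells cannot be read from whole cerebellum.

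**Figure D4:**
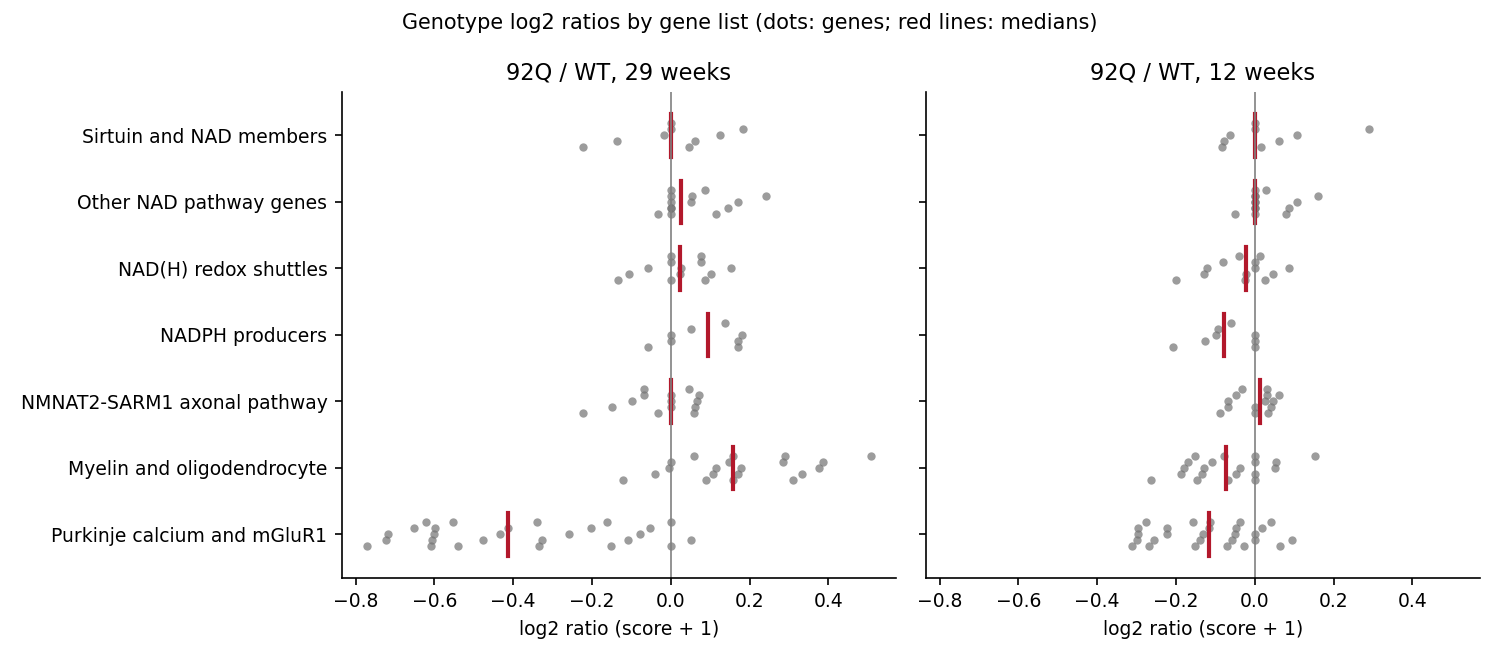
Genotype log2 ratio (x axis, score plus 1) of each measured gene (dots) and median (red line) for 7 gene lists at 29 weeks (left) and 12 weeks (right). The sirtuin and NAD members have a median of 0.00 at both ages, the myelin list has a median of 0.16 at 29 weeks, and the calcium list has medians of -0.41 at 29 weeks and -0.12 at 12 weeks.

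The pools also differed in their makeup, beside which every genotype and age value above stands. Microglia markers had a summed score of 466 in 92Q and 211 in wild type at 29 weeks over 14 measured of 17. Choroid plexus markers summed to 1473 in 92Q and 478 in wild type at 29 weeks, and to 20 in 92Q and 364 in wild type at 12 weeks. Xist, transcribed from the inactive X chromosome, scored 25 in 92Q and 63 in wild type at 29 weeks and 30 in 92Q and 66 in wild type at 12 weeks. The Y-linked Eif2s3y scored 15 in 92Q and 6 in wild type at 29 weeks, and 12 in 92Q and 0 in wild type at 12 weeks. Ddx3y, also Y-linked, scored 11 in 92Q and 5 in wild type at 29 weeks, and 9 in 92Q and 0 in wild type at 12 weeks. An effect of genotype, or of age in wild type, on the members and an effect of unequal sex in the pools cannot be told apart, and the part of these cell types in the members' scores was not tested. The genotype labels could not be checked on Atxn7, which was not analysed here.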

How the data were processed

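Total cerebellar RNA was sequenced as single-end reads, per the labels' protocols. The deposited table holds 1 normalized score per gene and group, a whole number that the authors made from 3 libraries. The normalization, the annotation and the use of strand in counting were not given in the sources used here. Per the submitters' processing notes, the build was mm10 and the tools, of unstated role and order, included Cuffdiff 1.3.0, Bowtie 0.12.7 and SAMtools 0.1.12a. Of 7684 rows, 17 with a number in place of a gene name were left out, and every row reaches 10 in at least 1 group. Low genes are thus missing, and depth and replicate error cannot be had.

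A limma fit over libraries had been planned. With 1 value per group it could not be fitted, so the rule set for that case was used: log2 ratios with a pseudocount of 1, over all genes with a score of at least 5 in a compared group, without a test. Percentiles are among genes whose mean score lay between 0.5 and 2 times the gene's own. The ratio code was tested on simulated data. Alternatives were pseudocounts of 0.1 and 5, minimum scores of 1 and 10, upper quartile, median ratio and quantile scaling, and 1.2-fold.

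The 21 gene lists, the members among them, were chosen with earlier results of these data known. All members and all measured NAD genes were named, with up to 4 genes of each cofactor, substrate and axonal list and up to 3 of each calcium or marker list by size of the 29-week ratio, and 3 genes nearest in pattern. Positions come from GENCODE M21 and upstream sequence from RefSeq GRCm38.p6. Python 3.11.15, pandas 2.3.3, NumPy 2.4.6 and matplotlib 3.10.9 were used.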

Additional observations from a re-analysis of the deposited data

Results flagged for a closer look

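The genotype log2 ratio of Sirt1 at 29 weeks minus that at 12 weeks was -0.33, drawn from scores of 11 in 92Q and 13 in wild type at 29 weeks and of 13 in 92Q and 12 in wild type at 12 weeks. It stands out because this difference was larger than rounding allows. The 12-week ratio alone had a rounding range that reached 0, so a change of sign between ages is not shown. For Sirt2 the same difference was 0.18, from 116 in 92Q and 102 in wild type at 29 weeks and 108 in both at 12 weeks. With 1 value per group neither difference was tested.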

How the results depend on the processing

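No paired analysis was possible because the table holds 1 combined value per group, and for the same reason no library could be left out in turn. Of 315 values for single members under the alternatives, 298 moved by less than rounding, 17 moved by more, all of Sirt2 or Nmnat2, and 0 changed sign. Many of the 298 are no check. The minimum scores of 1 and 10 cannot change a member's ratio. Upper quartile scaling gave every group but wild type at 12 weeks the same factor. With a pseudocount of 5, the members lower in 92Q at 29 weeks numbered 1, as did those lower with age in 92Q. With upper quartile scaling, 2 were higher in 92Q at 12 weeks and 2 were higher with age in wild type. At 1.2-fold, 0 were higher and 0 lower for genotype at 29 weeks, and 0 lower with age in 92Q. The calcium list median became -0.37 (genotype, 29 weeks) and -0.31 (age in 92Q) with a pseudocount of 5, and -0.44 (genotype, 29 weeks) with median ratio scaling. It became -0.0821 (genotype, 12 weeks) and -0.0351 (age in wild type) with upper quartile scaling, and -0.0867 and -0.0058 with quantile normalization. The myelin list median became -0.039 (genotype, 12 weeks) and -0.0251 (age in wild type) with upper quartile scaling, -0.0313 and -0.0161 with quantile normalization, and 0.13 (genotype, 29 weeks) with median ratio scaling. The causes were not tested. Of all genes at 12 weeks, 345 were higher and 614 lower in 92Q. These were 133 and 412 with a pseudocount of 5, 723 and 338 with upper quartile scaling, and 38 and 118 at 1.2-fold. At 29 weeks 1150 were higher and 649 lower, or 742 and 857 with median ratio scaling and 290 and 239 at 1.2-fold. The scaling that moved the median log2 ratio of all genes most was upper quartile scaling, to 0.0324 for genotype at 12 weeks and 0.0319 for age in wild type. Unknown depth and whole-number scores limit members with scores near 10 most.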
